A study of Sus scrofa with 61 samples.

Results

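The genes described here encode the thin filament and its anchor in the sarcomere of fetal pig muscle: the actins ACTA1 (skeletal alpha-actin), ACTC1 (cardiac alpha-actin) and ACTA2 (smooth muscle alpha-actin), the tropomyosins TPM1, TPM2 and TPM3, and the alpha-actinins ACTN2 and ACTN3. A probe was taken as a member if the gene name in the array scanner files, or the symbol given for it in the study's additional gene lists, was one of these 8 names. It found 7 of them, among 12335 genes named for a probe. The rule found 81 of the 60305 probes on the array: 17 for ACTA1, 3 for ACTC1, 8 for ACTA2, 23 for TPM1, 6 for TPM2, 8 for TPM3 and 16 for ACTN2. ACTN3, the alpha-actinin of fast fibres, had no probe under these names and was not analysed here. All 81 member probes passed the filter on dim signal, which kept 42436 probes.

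RNA from the longissimus, the long muscle of the back, was measured in 61 pig fetuses on 1-colour Agilent arrays with 60-base probes. The 4 genotypes were purebred Large White (LW), purebred Meishan (MS), and their reciprocal crosses: LWMS fetuses had an MS dam and an LW sire, and MSLW fetuses had an LW dam and an MS sire. Day 90 of gestation was represented by 8 fetuses of each genotype, and day 110 by 9 LW, 7 MS, 8 LWMS and 5 MSLW fetuses. The breeds differ in piglet survival at birth, and the design asks how muscle changes over late gestation in each genotype. By the study's methods all fetuses were male, came by caesarean and shared sows in mixed-semen litters. The sow of each fetus is not in the labels, so fetuses were treated as independent and the p-values may be too small.

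In striated muscle, actin monomers polymerise into the thin filament, tropomyosin lies along it as a coiled coil and, with the troponins, sets when myosin can bind, and alpha-actinin cross-links the filaments of neighbouring sarcomeres at the Z-disc. Fetal skeletal muscle is known to express cardiac and smooth muscle alpha-actin beside the skeletal isoform, with the skeletal isoform taking over as fibres mature. TPM3 is the tropomyosin known from slow fibres, TPM1 from fast fibres and heart, and TPM2 from both fibre types. Each tropomyosin gene is spliced into muscle and non-muscle products, so probes of 1 gene can report different transcripts.

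Replicate fetuses of a group correlated at r of 0.9541 to 0.9924 over the kept probes, and each array had 34346 to 45683 probes well above background. The arrays were printed on 8 slides of 6 to 8 arrays, and the slide accounted for a median of 19.1% of the variance within groups over the member probes, where 13.2% follows from the degrees of freedom alone. It accounted for over 50% in 8 member probes: TPM2 A_72_P586401 and A_72_P600482, TPM3 O13646, ACTN2 A_72_P496366 and A_72_P594269, ACTA1 O14588, and ACTA2 A_72_P556110 and A_72_P627171. No member probe was saturated on any array. All 8 skeletal muscle fibre markers (CKM, MYH3, MYH7, MYL1, DES, MYOG, CASQ1 and MB) were measured. Their summed signal ran from 1166970 to 1458000 over the fetuses with no split between the days, while 4 of them (CKM, MYH7, CASQ1 and MB) rose and 2 (MYH3 and MYOG) fell in all 4 genotypes. Quantile normalization gives spots of equal rank nearly equal values on every array. A sum over bright probes can therefore vary little, and it does not measure fibre content.

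The members are close relatives, and the probes show it. Probes of 1 gene that share a run of 20 or more bases overlap in part and were joined into groups, directly or through another probe. The 81 probes fell into 48 groups, counting those of 1 probe. Probes of a group are not replicates of each other, and they did not always move alike. The brightest ACTA2 probe, A_72_P521843, is close to ACTA1 A_72_P790187, with 56 of 60 bases identical, and both rose with age when 4 other ACTA2 probes fell. The pair shown here, 5′ to 3′, covers 1 homologous stretch at which the ACTA1 probe rose and the ACTA2 probe fell, with capitals for bases that differ or face a gap within the aligned stretch and the ends outside it in lower case.
ACTA1 A_72_P762162: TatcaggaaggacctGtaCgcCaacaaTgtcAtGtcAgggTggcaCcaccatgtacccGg
ACTA2 A_72_P678849: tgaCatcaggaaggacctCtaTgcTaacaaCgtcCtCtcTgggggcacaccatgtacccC
They were identical in 48 of 59 aligned columns. Among the tropomyosins the closest probes of different genes were TPM1 A_72_P726998 and TPM3 A_72_P302934, with 36 of 45 aligned columns identical, and they too moved in opposite directions, with capitals as above.
TPM1 A_72_P726998: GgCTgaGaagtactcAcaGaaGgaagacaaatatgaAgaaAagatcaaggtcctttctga
TPM3 A_72_P302934: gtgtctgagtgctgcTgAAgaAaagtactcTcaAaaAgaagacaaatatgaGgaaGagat
Beside these, ACTC1 A_72_P444505 shared a run of 21 bases with the opposite strand of a probe for ACTG2, an enteric smooth muscle actin. ACTA1 A_72_P723131 shared 22 bases with a probe for ACTB, a cytoplasmic actin. TPM2 A_72_P600482 shared 20 bases, on the same strand, with a probe for EIF3E, which is not a relative. How much of a bright signal comes from another gene's transcript was not tested.

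Between day 90 and day 110 most members rose in all 4 genotypes. A probe was called at a limma adjusted p under 0.01 over the 42436 kept probes, and differences are on the log2 scale of quantile-normalized intensity, day 110 less day 90. In LW, 52 of 81 member probes were called higher, against 21.8% of all kept probes, and 8 lower, against 23.5%. In MS, 61 were higher (all probes, 28.6%) and 10 lower (28.1%). In LWMS, 62 were higher (25.1%) and 8 lower (25.7%), and in MSLW 55 were higher (20.8%) and 10 lower (23.8%). Over the 81 probes the median difference was 0.30 (LW), 0.60 (MS), 0.62 (LWMS) and 0.40 (MSLW), while that over all kept probes was 0.03, 0.03, 0.04 and 0.02. ACTN2 was the gene with the most uniform rise, and TPM1 and TPM2 rose by less. ACTA1 had both rising and flat probes, and ACTA2, ACTC1 and TPM3 each had probes that rose and probes that fell. The measurements are per unit of total RNA, in which fewer cells of a type and less RNA per cell cannot be told apart.

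**Figure D1:**
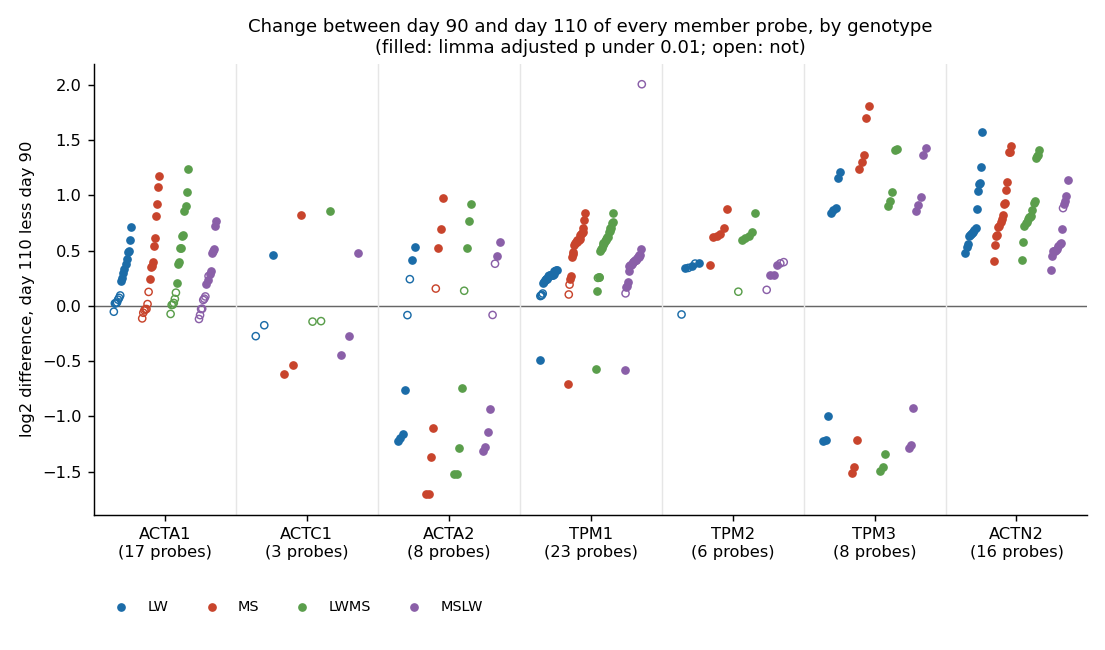
The log2 difference between day 110 and day 90 (vertical axis) of each member probe, by gene and genotype. Filled points passed a limma adjusted p under 0.01 and open points did not, and points are in order of size within a gene. ACTN2 lies wholly above 0, while TPM3 splits into 5 probes above and 3 below 0. The open TPM1 point at 2.01 in MSLW rests on 1 near-floor reading.

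Where each array was instead scaled to its 75th percentile with no quantile step, the median over all probes moved to 0.05 for LW, 0.12 for MS, 0.10 for LWMS and 0.10 for MSLW. More members were then called higher, 68 in LW, 69 in MS, 70 in LWMS fetuses and 68 in MSLW fetuses, with 8 called lower in each genotype.

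ACTA1, the main actin of the mature skeletal sarcomere, gave 8 probes called higher in all 4 genotypes, 3 in some, and 6 in none. Its brightest probe, A_72_P736997, ranked between 2 and 14 among all spots on every array, at 41.0% to 65.3% of saturation. It lay 0.09 higher at day 110 in LW and 0.13 in MS (adjusted p = 0.065 and 0.016), and rose by 0.21 in LWMS and 0.20 in MSLW (adjusted p = 7.48e-05 and 0.00099). With scaling to the 75th percentile the same probe moved by 0.41, 0.78, 0.70 and 0.62. Quantile normalization limits how far a probe of such rank can move.

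Other ACTA1 probes rose by more. A_72_P790187 had lowest, median and highest levels of 17.76, 18.11 and 18.27 in LW at day 90 and 18.25, 18.49 and 19.01 at day 110. In MS the levels were 17.87, 18.08 and 18.18 at day 90 and 18.81, 19.01 and 19.01 at day 110. The MS days lay far apart, whereas the lowest LW fetus of day 110 was just below the highest of day 90. In LWMS the levels were 17.65, 17.93 and 18.16 at day 90 and 18.63, 18.81 and 18.93 at day 110. In MSLW they were 18.09, 18.25 and 18.31 at day 90, and the 5 fetuses of day 110 had 18.96, 18.81, 18.58, 18.76 and 18.56. Neither cross overlapped between the days. The differences were 0.50 ± 0.08 (SE) in LW, 0.92 ± 0.08 in MS, 0.86 ± 0.08 in LWMS fetuses and 0.51 ± 0.09 in MSLW fetuses, with limma adjusted p of 1.02e-07, 4.79e-15, 2.13e-14 and 2.2e-06. Day 110 was above day 90 within all 8 slides, by 0.58 to 0.96. The largest change of the gene was that of A_72_P790124, with 0.72, 1.17, 1.24 and 0.77 in the same order. In contrast, A_72_P719238, A_72_P733933, A_72_P720293, A_72_P248052, A_72_P764598 and A_72_P755249 passed the test in no genotype, and their differences of 0.25 to 0.74 appeared with 75th percentile scaling only. A_72_P790124, A_72_P790187, A_72_P763429 and A_72_P728918 stand in the study's own gene lists, which were drawn from these samples, so they are not independent evidence of a direction.

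ACTA2, the actin of vascular smooth muscle and of immature muscle, split by probe. Among its 8 probes, 4 fell in all 4 genotypes, 2 rose in all 4, 1 rose in 2 genotypes, and A_72_P627171 passed in none. The brightest probe, A_72_P521843, is the one that matches ACTA1 in 56 of 60 bases, and it rose by 0.53 ± 0.09 (SE) in LW, 0.98 ± 0.10 in MS, 0.92 ± 0.09 in LWMS fetuses and 0.58 ± 0.11 in MSLW fetuses. These values lie beside the 0.50, 0.92, 0.86 and 0.51 of ACTA1 A_72_P790187. Its levels in MS were 17.39, 17.61 and 17.76 (lowest, median, highest) at day 90 and 18.47, 18.58 and 18.69 at day 110, with no overlap. O9213, which shares a 26-base run with ACTA1 A_72_P733238, also rose in all 4 genotypes. A_72_P521843 stands in the study's lists, so it is not independent evidence of a direction.

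The ACTA2 probes that fell included the brightest one that shares no run of 14 or more bases with a probe of another member, A_72_P070041. In LW its levels were 14.99, 15.29 and 15.43 at day 90 and 13.80, 13.99 and 14.53 at day 110. In MS they were 15.36, 15.58 and 15.71 at day 90 and 13.45, 13.81 and 14.18 at day 110. In LWMS they were 15.32, 15.41 and 15.55 at day 90 and 13.51, 13.91 and 14.35 at day 110. MSLW fetuses had 15.22, 15.32 and 15.69 at day 90, and the 5 of day 110 had 14.01, 14.11, 14.26, 13.99 and 14.09. The days did not overlap in any genotype. The probe fell by 1.20 in LW, 1.70 in MS, 1.52 in LWMS fetuses and 1.31 in MSLW fetuses, each with an SE of 0.09 to 0.11 and with limma adjusted p from 3.9e-22 to 1.5e-15. In MS that left 0.308 of the day 90 intensity. Within the 8 slides the fall was between 1.34 and 1.59. A_72_P615057 holds the run cctagccaaagctctgactcgttacct in common with A_72_P070041, shown in lower case because no base of it is marked, and the pair fell alike, A_72_P615057 by 1.23, 1.70, 1.52 and 1.27. A_72_P678849 fell by 1.16, 1.36, 1.29 and 1.14, whereas its ACTA1 counterpart in the sequences above, A_72_P762162, rose by 0.38, 0.62, 0.63 and 0.47. A_72_P627171, which overlaps A_72_P678849, did not follow it: it passed in no genotype and differed by -0.08 in LW. The slide accounted for 65.7% of the variance of A_72_P627171 within groups. A_72_P529904 fell by 0.76, 1.11, 0.74 and 0.94.

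Summed signals of smooth muscle and connective tissue markers moved with age as well. The summed signal of 7 smooth muscle and pericyte markers (MYH11, TAGLN, CNN1, MYLK, MYL9, RGS5 and CALD1, all measured) ran from 64561 to 118209 at day 90 and from 34831 to 68661 at day 110. Of these, 1 was called higher and 3 lower in all 4 genotypes, where 16.5% of 8956 named genes were higher and 22.4% lower, each gene read by its brightest kept probe. MYH11, the myosin that defines smooth muscle, was well above background on 39 arrays and was called in no genotype. TAGLN, a calponin-related actin-binding protein, rose by 0.68, 0.50, 0.72 and 0.50. MYL9, a smooth muscle myosin light chain, fell by 1.55, 1.72, 1.12 and 1.90. The 6 fibroblast markers (COL1A1, COL1A2, COL3A1, DCN, LUM and PDGFRA) all fell in all 4 genotypes, with a summed signal of 402192 to 535884 at day 90 and 89531 to 233907 at day 110. The 4 endothelial markers summed to 21284 to 31221 at day 90 and 13535 to 19140 at day 110, with 1 called higher and 2 lower in all 4 genotypes. None of the 4 adipocyte and 4 measured blood cell markers was called in the same direction in all 4 genotypes, and their sums ran from 5326 to 27855 and from 3343 to 7081. The part of these cells in the fall of the ACTA2 probes was not tested.

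ACTC1, the actin of heart and of developing skeletal muscle, also split. Its brightest probe, A_72_P751785, had levels of 18.08, 18.11 and 18.22 in MS at day 90 and 17.26, 17.62 and 17.82 at day 110. In LW the levels were 18.07, 18.21 and 18.28 at day 90 and 17.65, 18.08 and 18.18 at day 110. The MS days did not overlap and the LW days did. In LWMS the levels were 18.02, 18.10 and 18.21 at day 90 and 17.64, 18.00 and 18.18 at day 110. In MSLW they were 18.14, 18.18 and 18.33 at day 90, and 17.81, 18.06, 18.03, 17.92 and 17.82 in the 5 fetuses of day 110. The MSLW days were apart and the LWMS days overlapped. The probe fell by 0.53 in MS (SE 0.07, limma adjusted p = 2e-09) and by 0.27 in MSLW (adjusted p = 0.0026), and its differences of -0.17 in LW and -0.14 in LWMS missed the threshold (adjusted p = 0.021 and 0.076). With the slide as a block the LW difference was -0.19 with an adjusted p of 0.0091. A_72_P100991 behaved alike, with -0.27, -0.62, -0.14 and -0.44. These directions depend on the scaling: by the 75th percentile A_72_P751785 differed by 0.14, 0.17, 0.40 and 0.26 and A_72_P100991 by 0.06, 0.10, 0.42 and 0.10. A_72_P444505, the probe with a run matching ACTG2 on the opposite strand, rose by 0.46, 0.83, 0.86 and 0.48, and its direction held with either scaling. A_72_P751785 stands in the study's lists, so it is not independent evidence of a direction.

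The summed signal of 4 measured heart markers ran from 11770 to 50629 at day 90 and from 3722 to 18232 at day 110, while MYH6 and NPPB had no kept probe. Of the 4, 1 rose and 1 fell in all 4 genotypes. MYBPC3, the cardiac myosin-binding protein C, rose by 1.12, 2.33, 1.90 and 1.54. MYL7, the atrial myosin light chain, fell by 2.85 in LW, by 2.58 in MS, by 1.89 in LWMS and fell by 4.26 in MSLW, while NPPA, the atrial natriuretic peptide, rose in 3 genotypes, by 1.00 in MS, 0.62 in LWMS and 0.71 in MSLW. TNNI3, a troponin, rose by 0.72 in LW and 0.60 in MS (limma adjusted p = 6.6e-05 and 0.0014) and was not called in the crosses. MYL7 was the only marker of the 4 that fell, so the lower sum at day 110 rests on that 1 gene. The relation of these markers to ACTC1 was not tested.

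**Figure D2:**
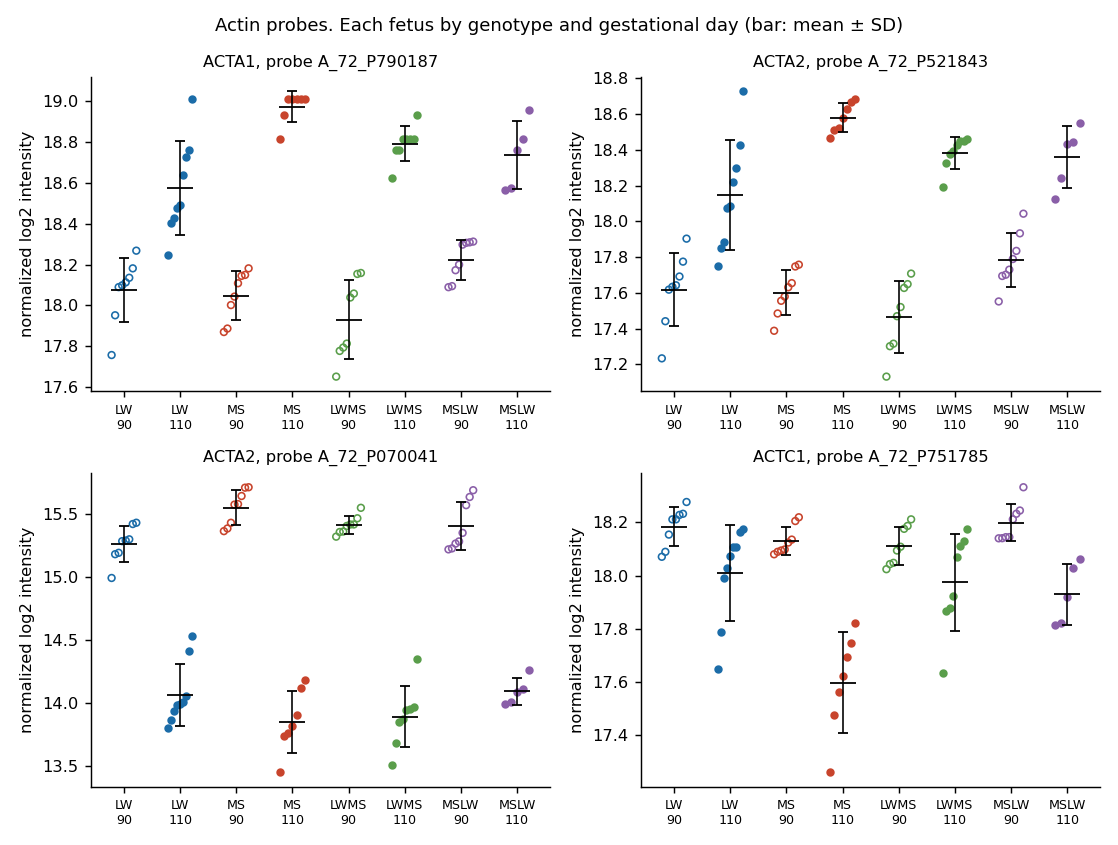
Normalized log2 intensity (vertical axes, not starting at 0) of 4 actin probes in each of 61 fetuses, by genotype and gestational day. Open points are day 90, filled points day 110, and bars give the mean ± SD of the group. ACTA1 A_72_P790187 and ACTA2 A_72_P521843 rose, ACTA2 A_72_P070041 fell without overlap in every genotype, and ACTC1 A_72_P751785 was lowest in MS at day 110, though its change with age turned positive with 75th percentile scaling.

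TPM1 rose in 21 of 23 probes: 15 were called higher in all 4 genotypes and 6 in some. Its brightest probe, A_72_P741907, had 1 reading of 3.0 among the MSLW fetuses of day 90, where the other 7 lay between 17.97 and 18.23. That reading widened the spread of the whole fit for the probe, so its difference of 2.01 ± 1.08 (SE) in MSLW is not a measure of change. With the reading left out, a choice made after seeing it, the probe rose by 0.19 in MS and 0.25 in LWMS (limma adjusted p = 8e-05 and 3.6e-07) and differed by 0.10 in LW and 0.12 in MSLW (adjusted p = 0.031 and 0.036). The next brightest probe, A_72_P723783, rose by 0.21, 0.44, 0.51 and 0.22 in LW, MS, LWMS and MSLW.

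Leaving out the near-floor probe, A_72_P752169 had the largest TPM1 rise in LW, MS and LWMS. Its lowest, median and highest levels were 16.19, 16.35 and 16.48 in LW at day 90 and 16.20, 16.71 and 17.21 at day 110. In MS they were 16.14, 16.29 and 16.50, then 16.90, 17.19 and 17.27. In LW the days overlapped, and in MS they were apart. In LWMS they were 15.82, 16.27 and 16.41, then 16.68, 17.06 and 17.20, and in MSLW 16.14, 16.43 and 16.86 at day 90 against 17.13, 17.05, 16.65, 17.03 and 16.67 at day 110. The probe rose by 0.33 ± 0.09 (SE) in LW, 0.84 ± 0.10 in MS, 0.84 ± 0.10 in LWMS fetuses and 0.46 ± 0.11 in MSLW fetuses. It stands in the study's lists, as do A_72_P713993 and A_72_P726528. Only A_72_P255182 among the 23 fell, by 0.49, 0.70, 0.57 and 0.58, and it fell in all 4 genotypes, with 75th percentile scaling too (-0.29, -0.44, -0.38 and -0.36).

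TPM2 rose in all 6 of its probes in at least 1 genotype and in 3 of them in all 4. Its brightest probe, A_72_P031791, had levels of 14.21, 14.49 and 14.63 in LW at day 90 and 14.55, 14.70 and 15.40 at day 110. In MS the levels were 14.31, 14.46 and 14.54, then 14.91, 15.08 and 15.29. The MS days were apart and the LW days overlapped. In LWMS they were 14.26, 14.33 and 14.60, then 14.74, 14.98 and 15.20, and in MSLW 14.43, 14.47 and 14.74 at day 90 against 14.87, 14.79, 14.59, 14.96 and 14.82. The probe rose by 0.34 ± 0.08 (SE), 0.64 ± 0.08, 0.60 ± 0.08 and 0.28 ± 0.09 in LW, MS, LWMS and MSLW, with limma adjusted p of 0.0002, 1.7e-09, 4.1e-09 and 0.0084. O610 passed in MS only, with 0.37, and had -0.08, 0.13 and 0.15 in LW, LWMS and MSLW.

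TPM3 held the widest split of the tropomyosins: 5 probes rose and 3 fell in all 4 genotypes. The brightest, A_72_P123958, had levels of 15.54, 15.79 and 15.95 in LW at day 90 and 16.26, 16.72 and 16.91 at day 110. In MS they were 15.49, 15.68 and 15.75, then 16.87, 16.95 and 17.02. In LWMS they were 15.35, 15.55 and 15.94, then 16.42, 16.55 and 16.73. MSLW fetuses had 15.30, 15.79 and 16 at day 90, and 16.82, 16.69, 16.52, 16.61 and 16.64 at day 110, so no genotype overlapped between the days. The probe rose by 0.87 ± 0.08 (SE), 1.30 ± 0.08, 0.95 ± 0.08 and 0.92 ± 0.09, with limma adjusted p from 1.6e-20 to 8.3e-13, which in MS was a 2.46-fold rise. It was chosen by the study on these samples as well. CUST_444_PI427286967 rose by 1.16, 1.81, 1.41 and 1.43, and O13646 by 1.21, 1.70, 1.42 and 1.36.

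The falling TPM3 probes were A_72_P256442, A_72_P302934 and A_72_P649261. A_72_P256442, the brightest of them, had levels of 12.96, 13.05 and 13.10 in LW at day 90 and 11.77, 12.09 and 12.25 at day 110. In MS they were 13.10, 13.18 and 13.26, then 11.69, 11.97 and 12.11. The days were apart in both breeds. In LWMS they were 12.94, 13.17 and 13.28, then 11.56, 11.84 and 12.05, and in MSLW 12.91, 12.98 and 13.28 at day 90 against 11.92, 12.12, 12.40, 12.25 and 11.98. It fell by 0.99, 1.21, 1.34 and 0.93, and within the 8 slides by 1.01 to 1.34. A_72_P302934, which aligns with TPM1 A_72_P726998 above, fell by 1.22, 1.51, 1.49 and 1.28, against rises of 0.67, 0.75 and 0.51 for the TPM1 probe in MS, LWMS and MSLW and 0.24 (adjusted p = 0.03) in LW. A_72_P302934 and A_72_P649261 overlap, so the 3 falling probes are not 3 separate stretches. Both were dim: in the MSLW fetuses of day 110 they read 8.30 to 8.92 and 7.23 to 8.16. Which TPM3 transcripts the probes match could not be read from the files used here.

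**Figure D3:**
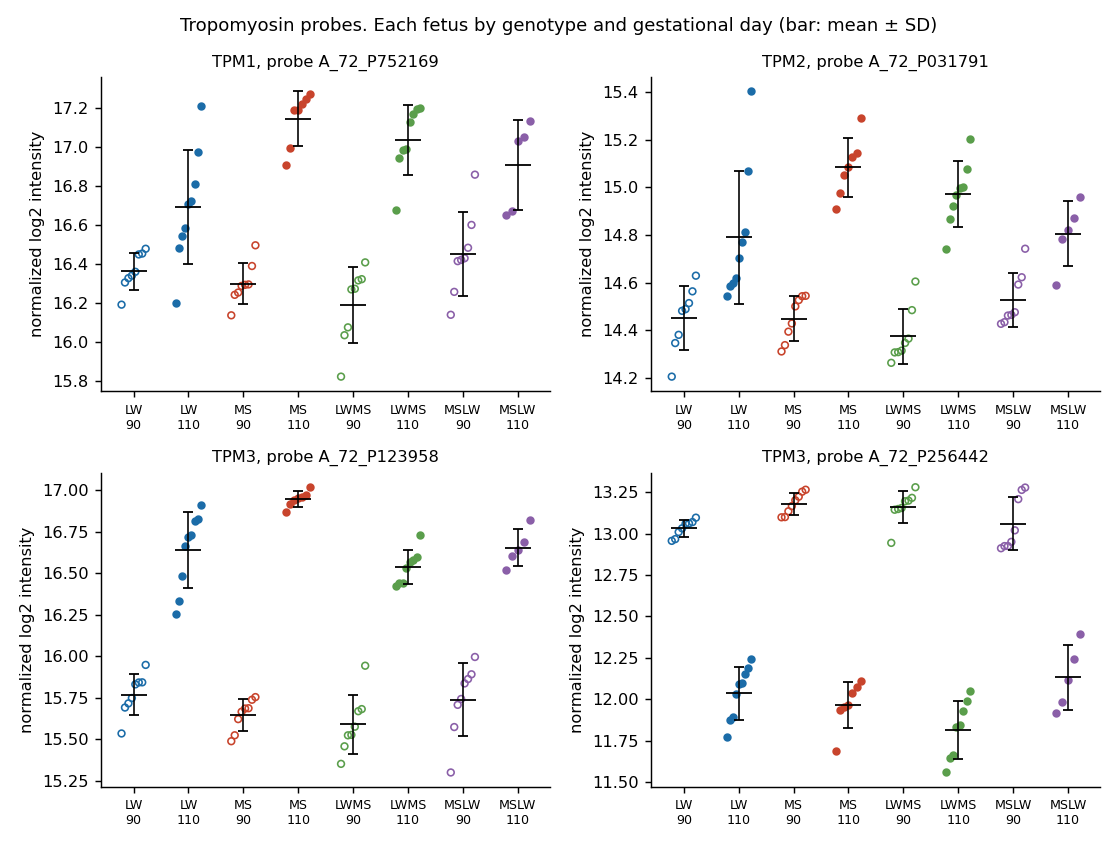
Normalized log2 intensity (vertical axes, not starting at 0) of 4 tropomyosin probes in each of 61 fetuses, by genotype and gestational day, with open points for day 90, filled points for day 110 and bars for the mean ± SD. TPM3 A_72_P123958 rose and TPM3 A_72_P256442 fell, each with no overlap between the days in any genotype.

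ACTN2, the alpha-actinin of the Z-disc in cardiac and all skeletal fibres, rose in all 16 probes, and in 15 of them in all 4 genotypes. The exception, A_72_P576449, missed the threshold in MSLW alone (0.89, limma adjusted p = 0.04). Over the 16 probes the difference ran from 0.48 to 1.58 in LW, 0.41 to 1.44 in MS, 0.42 to 1.41 in LWMS and 0.33 to 1.14 in MSLW, with medians of 0.68, 0.80, 0.81 and 0.55. The brightest probe, O12566, had levels of 17.09, 17.22 and 17.31 in LW at day 90 and 17.53, 17.68 and 17.90 at day 110. In MS they were 17.10, 17.28 and 17.37, then 17.60, 17.65 and 17.78. In LWMS they were 17.08, 17.19 and 17.42, then 17.46, 17.65 and 17.72. These 3 genotypes did not overlap between the days. In MSLW the levels were 17.11, 17.24 and 17.56 at day 90 and 17.73, 17.58, 17.40, 17.62 and 17.63 at day 110, with overlap. O12566 rose by 0.48, 0.41, 0.42 and 0.33 (SE 0.06 to 0.07), and day 110 was above day 90 within all 8 slides, by 0.29 to 0.52.

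**Figure D4:**
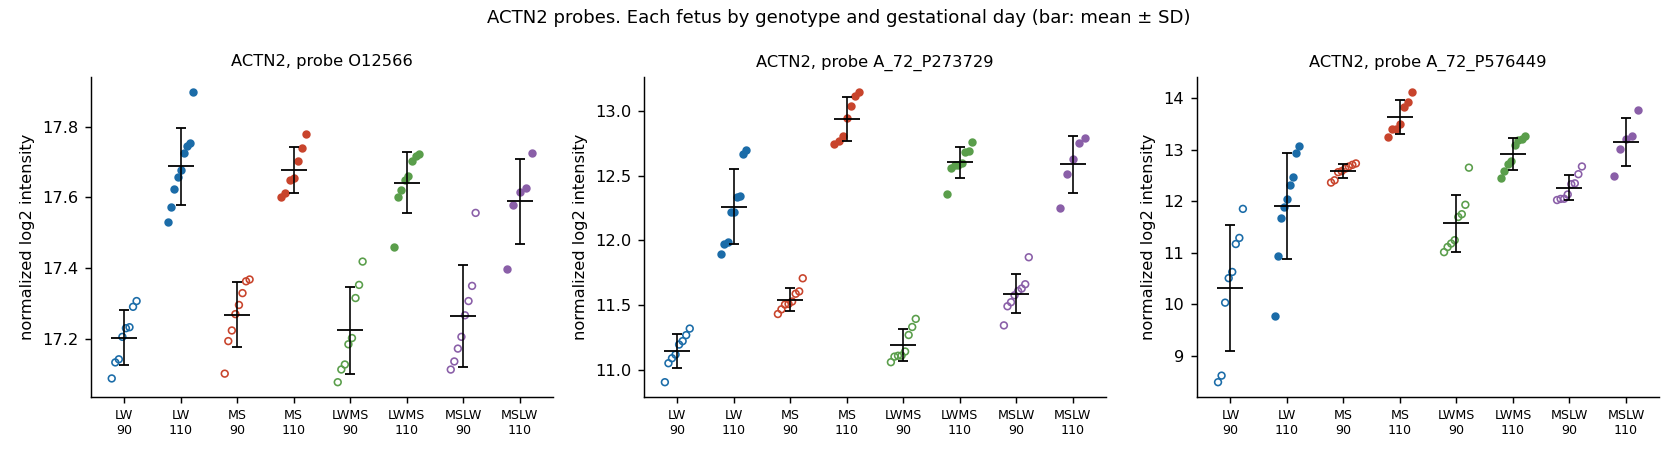
Normalized log2 intensity (vertical axes, not starting at 0) of 3 ACTN2 probes in each of 61 fetuses, by genotype and gestational day, with open points for day 90, filled points for day 110 and bars for the mean ± SD. O12566 separates the days in LW, MS and LWMS but not in MSLW. The breeds overlap in it at day 110 on this scale, and differ by 0.32 with 75th percentile scaling. A_72_P273729 separates the days and the breeds among the purebreds. A_72_P576449 spreads from 8.49 to 11.85 in LW at day 90, while MS fetuses of that day lie between 12.36 and 12.73.

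The purebreds differed little at day 90 and more at day 110. At day 90, 4 member probes were called in MS against LW, all higher in MS, against 12.8% of all kept probes called in either direction. They were ACTA2 A_72_P529904 (0.43) and ACTN2 A_72_P273729 (0.40), A_72_P560489 (0.38) and A_72_P576449. At day 110, 30 were higher in MS, against 13.7% of all kept probes, and 2 were lower, against 15.2%. The median difference over the 81 probes was 0.22 at day 110, and 0.01 over all kept probes. The 30 comprised 15 of TPM1, 4 of TPM3, 3 each of ACTA1, TPM2 and ACTN2, and 1 each of ACTC1 and ACTA2, with differences of 0.14 (TPM1 A_72_P753840) to 1.74. With scaling by the 75th percentile 62 members were higher in MS at day 110 and none lower.

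ACTA1 A_72_P790187 was 0.40 ± 0.08 (SE) higher in MS than LW at day 110, and TPM1 A_72_P752169 0.45 ± 0.10, with limma adjusted p of 5.1e-05 and 0.00017. TPM2 A_72_P031791 was 0.29 ± 0.08 higher and TPM3 A_72_P123958 0.31 ± 0.08, with adjusted p of 0.0028 and 0.0016. Fetuses of the breeds overlapped in each of these probes on this scale. The highest LW fetus of day 110 had 19.01 for A_72_P790187, as high as any MS fetus. That value is near the top of the normalized scale: ACTA1 A_72_P736997 also read 19.01 in MSLW replicates 1, 2 and 3 of day 110. Spots of equal rank are given nearly equal values, so equal readings there do not show equal amounts. Within the 6 slides that held both breeds at day 110, MS was above LW in all 6 for each of A_72_P790187, A_72_P031791 and A_72_P123958.

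The 2 members lower in MS at day 110 were ACTC1 A_72_P751785, at -0.41 ± 0.07 (SE, limma adjusted p = 2.2e-06), and ACTC1 A_72_P100991, at -0.49 ± 0.10. The third ACTC1 probe, A_72_P444505, was 0.36 ± 0.09 higher. By the 75th percentile the 2 differences were -0.08 and -0.22.

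The largest breed difference of any member was in ACTN2 A_72_P576449. At day 90 its lowest, median and highest levels were 8.49, 10.56 and 11.85 in LW and 12.36, 12.61 and 12.73 in MS. At day 110 they were 9.76, 12.05 and 13.06 in LW and 13.24, 13.49 and 14.12 in MS. Breeds were apart at both ages, and the SD in LW was 1.22 at day 90 and 1.03 at day 110, against 0.14 and 0.33 in MS. The medians of the crosses lay between, with 11.01, 11.47 and 12.65 in LWMS and 12.02, 12.23 and 12.67 in MSLW at day 90. At day 110 LWMS had 12.44, 12.94 and 13.26, and the MSLW fetuses had 13.21, 13.77, 13.27, 12.48 and 13.02. MS exceeded LW by 2.26 ± 0.33 (SE) at day 90 and 1.74 ± 0.33 at day 110, which was 4.79-fold and 3.33-fold, with limma adjusted p of 3.2e-07 and 2.4e-05. MS was above LW on all 8 slides at day 90 and on all 6 slides with both breeds at day 110. The brightest ACTN2 probe differed between the breeds by 0.06 at day 90 and -0.01 at day 110 (adjusted p = 0.5 and 0.91), and by 0.32 at day 110 with 75th percentile scaling (adjusted p = 0.0052). Of the remaining ACTN2 probes, A_72_P273729 and A_72_P560489, which overlap by most of their length, were higher in MS at both ages, by 0.40 and 0.38 at day 90 and by 0.68 and 0.68 at day 110. A_72_P273729 had 10.90, 11.16 and 11.32 in LW and 11.43, 11.52 and 11.71 in MS at day 90, and 11.89, 12.22 and 12.70 against 12.74, 12.95 and 13.15 at day 110, so the breeds were apart at both ages. Whether a base of the probe differs between the breeds was not tested.

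**Figure D5:**
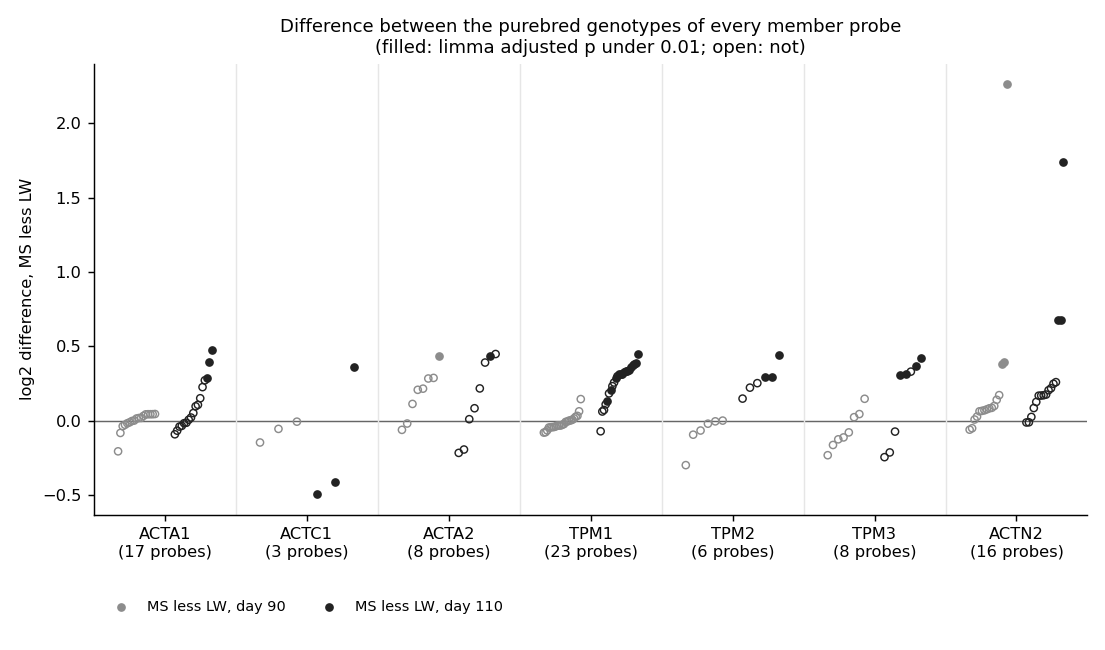
The log2 difference between MS and LW (vertical axis) of each member probe at day 90 (grey) and day 110 (black), by gene. Filled points passed a limma adjusted p under 0.01 and open points did not, and points are in order of size within a gene. TPM1 lies near 0 at day 90 and mostly above 0 at day 110, and 1 ACTN2 probe stands apart at both ages, at 2.26 and 1.74.

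The change with age itself differed between MS and LW in 7 member probes. The test was of the MS change less the LW change, and 5 probes were called higher, against 2.56% of all kept probes, and 2 lower, against 3.39%. Those with the larger rise in MS were ACTA1 A_72_P790187 (0.42 ± 0.11, SE), TPM1 A_72_P752169 (0.52 ± 0.14) and A_72_P730928 (0.42 ± 0.11), and TPM3 A_72_P123958 (0.43 ± 0.11) and CUST_444_PI427286967 (0.66 ± 0.17). Those with the larger fall in MS were ACTC1 A_72_P751785 (-0.36 ± 0.10) and ACTA2 A_72_P070041 (-0.50 ± 0.14). Limma adjusted p was between 0.005 and 0.009 for all 7. Of these, A_72_P790187, A_72_P752169, A_72_P123958 and A_72_P751785 stand in the study's lists. Those lists were chosen on these fetuses, in part for an interaction of age and genotype, and were 1 source of member names. The excess over all kept probes is therefore not independent evidence. The median of the MS change less the LW change was 0.23 over the 81 probes. The count was 1 with no filter on dim signal, 3 in a fit of the purebreds alone, 4 with non-uniform spots kept and 11 with the slide as a block. By the 75th percentile 47 members were called higher and none lower, and the ACTC1 value was 0.03. All-probe calls shifted as well, from 43.0% to 61.0% higher.

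In the model with the genotypes of the dam and the sire as separate terms, the change with age depended on the dam's genotype in 16 members, 15 higher and 1 lower with an MS dam, against 3.05% of all kept probes. They comprised 8 of TPM1, 4 of ACTA1, and 1 each of ACTC1, ACTA2, TPM2 and TPM3, the last being A_72_P256442 (-0.32 ± 0.07, SE). ACTA1 A_72_P790124 had 0.47 ± 0.11 and TPM1 A_72_P752169 0.46 ± 0.10, with limma adjusted p of 0.0029 and 0.002. Without replicate 3 of the MSLW fetuses of day 110 only 5 members were called, among 863 calls over all kept probes. By the 75th percentile 40 members were called, among 1422. No member was called for the sire's genotype, against 0.462% of all kept probes, with 10 at an unadjusted p under 0.05. Litter mates share the dam, and the sow was not modelled, so the p-values for the dam's genotype may be too small. The sire varied within mixed-semen litters, so the counts for dam and sire are not on an equal footing. The study's lists, 1 source of member names, were chosen on these fetuses partly for parental effects, so the share among members is not independent of them.

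The reciprocal crosses differed in 4 members at day 90, all higher in MSLW, against 0.5% of all kept probes: ACTA1 A_72_P728918 (0.28 ± 0.05, SE) and A_72_P763429 (0.31 ± 0.06), and ACTN2 A_72_P273729 (0.40 ± 0.09) and A_72_P560489 (0.42 ± 0.09). The ACTA1 probes belong to 1 group of overlapping probes and the ACTN2 probes to another, so the 4 calls come from 2 groups. Only 2 members were called without the MSLW fetus whose TPM1 reading lay near the floor, and none by the 75th percentile. At day 110 limma called no member between the crosses, against 0.912%, with 5 at an unadjusted p under 0.05. Against the mean of the purebreds, the crosses differed in no member at day 90 (all kept probes, 0.0495%) or day 110 (0.0778%), with 1 and 8 members at an unadjusted p under 0.05. These comparisons use the same fetuses as those above.

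The partners of these proteins were read from lists of genes, each by its brightest kept probe. Over the 8956 named genes, 16.5% were called higher in all 4 genotypes and 22.4% lower, and 34.8% were higher and 36.8% lower in at least 1 with no call the other way. All 5 measured non-muscle and smooth muscle counterparts fell in at least 1 genotype, and 4 of them in all 4. The cytoplasmic actins ACTB and ACTG1 had mean changes over the genotypes of -0.72 and -0.77, the smooth muscle actin ACTG2 -1.19, the non-muscle tropomyosin TPM4 -1.87 and the non-muscle alpha-actinin ACTN1 -0.84. ACTN4 had no kept probe. By the 75th percentile ACTB (-0.19) was called in no genotype and ACTG1 (-0.39) in 1, while TPM4, ACTN1 and ACTG2 fell in all 4.

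Z-disc partners of alpha-actinin mostly rose: of 18, all measured, 15 were higher in at least 1 genotype, against 34.8% of named genes, 9 in all 4, and 1 was lower. MYOZ2, a calsarcin that ties calcineurin to alpha-actinin, rose by 1.29 on average, SYNPO2, an actin-bundling Z-disc protein, by 1.29, and PDLIM3, a PDZ and LIM protein that binds alpha-actinin, by 1.18. PALLD, an actin scaffold of stress fibres and Z-discs, fell by 1.23.

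Of 25 genes for thin filament length and assembly 19 were measured, and 8 were higher and 5 lower in at least 1 genotype, with 3 higher and 3 lower in all 4, which is near the shares over all named genes. By the 75th percentile 11 were higher in at least 1 genotype and 7 in all 4. LMOD2, a leiomodin that nucleates actin, rose by 1.11, XIRP1, a protein of sites of sarcomere repair, by 0.77 and NEB, the nebulin that spans the thin filament, by 0.71. The monomer-binding CFL1 (-0.73) and PFN1 (-0.59), which serve actin turnover in all cells, and TMOD2 (-0.98), a tropomodulin of pointed ends, fell. Of 8 troponins 4 rose in at least 1 genotype and 3 in all 4, against 7 and 5 by the 75th percentile. The largest rises were TNNT1 (0.64), TNNI3 (0.50) and TNNT3 (0.49), while TNNT2, the cardiac and embryonic troponin T, fell by 3.09. Of 9 genes for SRF and its actin-sensing coactivators 5 were measured: SRF was called in MSLW alone, where it rose by 1.79, and MKL1 fell in 3 genotypes (mean -0.44). Scaling by the 75th percentile turned the sign of 3 genes of the thin filament list, 1 Z-disc gene and 2 of the SRF list, none of them named here.

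Genes whose brightest probe varied most like a member's over the 61 arrays, within groups and slides, were ranked by Pearson correlation among 8491 named genes, as a description. For ACTA2 they were MYBPC3 (r = 0.79), TPM2 (0.75) and PDLIM7 (0.75), and for TPM2 they were TPI1 (0.77), ACTA2 (0.75) and YBX1 (0.74), each with the ACTA2 probe that matches ACTA1. For TPM3 they were TNNT1 (0.80), the slow troponin T, MYL6B (0.65) and MYOZ2 (0.65). For ACTC1 they were SRI (0.69), PALLD (0.59) and HOXA2 (0.57), and for ACTN2 CSNK2A1 (0.66), INTS8 (0.55) and WNT10B (0.54). For ACTA1 they were SETD1A (0.44), PSMD12 (0.43) and RNF166 (0.43). For TPM1 the r of 0.99 or more with TCP1, DALRD3 and PI4KB rested on the near-floor array, and without it ACTA2 (0.61), NDUFA9 (0.60) and MRPL15 (0.57) led over 60 arrays. The arrays share slides and one normalization, so these values carry no p.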

How the data were processed

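The deposited scanner files, 1 per array, were made by the authors with Agilent Feature Extraction 10.10.1.1 and hold Cy3 intensity per spot. The authors also deposited a table of normalized log2 values. Over its 44368 probes it matched quantile-normalized log2 median signal at r of 0.999766 to 0.999999 per array, once its identifiers were read as row numbers of the scanner files, and its column medians ran from 8.09 to 8.10. That match gives its scale, with no centring of genes.

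Background-corrected intensity was quantile normalized and then taken to log2 in R 4.3.3 with limma 3.58.1, without control spots and spots marked as non-uniform. The filter required a signal well above background on 80% or more of the arrays in 1 or more of the 8 groups. A limma fit of the group means gave moderated two-sided tests, adjusted by Benjamini-Hochberg over all 42436 kept probes and called under 0.01. A second fit had age, the genotypes of dam and sire, and their pairwise interactions. The sow, a random effect in the study's methods, is not in the labels and was not modelled. Precision is limited by the number of arrays.

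Samples were grouped by the genotype and day in their labels. The main probe of a gene was its brightest kept probe that was saturated on no array. Up to 3 genes per partner list and direction, with the largest mean change among genes called in 1 or more genotypes, were named, as was every gene of the non-muscle list. The members and lists were chosen with earlier results of these data known. Marker lists covered skeletal muscle, smooth muscle, heart, fibroblasts, endothelium, adipocytes and blood cells. The fits were tested on simulated data: in the MS comparison of days over 42436 probes, 72 of 100 probes changed by 1 on the log2 scale were recovered, and 30 of 100 changed by 0.5. Only 200 probes were changed there, whereas 12137 were called higher and 11904 lower in the real comparison. The adjusted threshold was thus stricter in the simulation, and these shares do not give the sensitivity of the reported tests. Alternatives were the median signal, the deposited table, normexp with an offset of 50, 75th percentile scaling, looser and stricter filters, kept non-uniform spots, the slide as a block, a purebred fit, an unmoderated model, left-out replicates, and the mean of a gene's probes. Other genes were named from the study's lists, the scanner files or, through their accessions, the RefSeq table of symbols, in that order. The sequences of 1 pair of probes are not reported here.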

Additional observations from a re-analysis of the deposited data

Results flagged for a closer look

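Among 56 groups of fetuses tested on the brightest probe of each gene, 4 had a fetus far from the others, where chance gives about 1 in 20. The lowest LWMS fetus of day 110 had 18.76 for ACTA1 A_72_P736997, and the next 18.93. TPM1 A_72_P741907 read 3.0 in 1 MSLW fetus of day 90, where the next lowest was 17.97, and 18.35 in the highest LWMS fetus of day 110, where the next was 18.29. ACTN2 O12566 was lowest at 17.46 in 1 LWMS fetus of day 110, with the next at 17.60.

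The change with age differed between MS and LW, by the limma test of that difference, in 7 probes. It was larger in MS by 0.42 for ACTA1 A_72_P790187, 0.42 for TPM1 A_72_P730928, 0.52 for TPM1 A_72_P752169, 0.43 for TPM3 A_72_P123958 and 0.66 for TPM3 CUST_444_PI427286967. It was -0.36 for ACTC1 A_72_P751785 and -0.50 for ACTA2 A_72_P070041.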

How the results depend on the processing

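Counts of members called with age stayed within 1.5 times under every alternative run: 59 to 76 in LW fetuses, 70 to 77 in MS fetuses, 69 to 78 in LWMS fetuses and 59 to 76 in MSLW fetuses. Scaling by the 75th percentile moved the count of members that differed between the breeds at day 110 from 32 to 62, that for the difference in age change from 7 to 47, for the dam's genotype from 16 to 40, and for MSLW against LWMS at day 90 from 4 to 0. It also moved the share of called probes that were higher, over all probes, from 47.5% to 56.8% for MS against LW at day 110 and from 29.6% to 48.1% for the sire's genotype. The count of 4 between the crosses at day 90 was 1 with the deposited table, 1 with the median signal, 2 with no filter, 2 with non-uniform spots kept, and 2 without MSLW replicate 2 of day 90, the last chosen after seeing the data. The count of 7 was 1 with no filter, 4 with non-uniform spots kept, 3 in the purebred fit and 11 with the slide as a block. Leaving out each MSLW fetus of day 110 in turn gave 59 to 64 for MSLW with age, 5 to 21 for the dam's genotype, 7 to 8 for the difference in age change, 4 to 4 for the crosses at day 90, 0 to 1 for the crosses at day 110, where the 1 came without replicate 1, and 0 for the sire's genotype and both mid-parent comparisons. LW stayed at 60, MS at 71, LWMS at 70, and MS against LW at 4 and 31. The causes were not tested.

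Of the main probes, ACTC1 turned to 0.17 in MS, 0.40 in LWMS, 0.26 in MSLW and 0.03 for the difference in age change, and ACTN2 to 0.32 for MS against LW at day 110, with 75th percentile scaling. The mean of a gene's probes gave ACTA2 -0.40 in LW, -0.44 in MS, -0.34 in LWMS fetuses and -0.42 in MSLW fetuses, and ACTN2 0.31 for MS against LW at day 110. ACTA2 by A_72_P070041, chosen after seeing the data, gave -1.20, -1.70, -1.52 and -1.31 with age, -0.21 between the breeds at day 110, -0.50 for the difference in age change and -0.35 for the dam's genotype. With the stricter filter TPM1 A_72_P741907 was not in the fit. No paired analysis was possible because the labels pair no fetuses. The replicate numbers used here only follow the order of the samples.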
